A study of Mus musculus with 9 samples.

Results

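This account concerns 8 genes of neutrophils and of the acute phase response in the mouse aorta: S100a8, S100a9, Saa3, Il1b, Lcn2, Hp, Il6 and Csf3r. They were selected on the group values of the deposited table itself, by symbol, from 37668 genes listed there, so their levels and ratios are given as a description with no test. Of the 8, 7 stood at 1 FPKM (fragments per kilobase of transcript, scaled to the mapped fragments of the library) or more in at least 1 group and are among the 14225 genes compared. Il6 stood below that in every group. Il1b reached 1 FPKM in Cdh5Cre alone, Saa3 in floxed alone and Csf3r in both Cre groups, so these 3 entered through the groups in which they were high. S100a8, S100a9, Lcn2 and Hp reached it in all 3 groups.

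The data came from 9 aorta samples of male mice aged 90 days, of the background 129T2SvEmsJ:C57Blk/6J, with 3 samples in each of 3 groups, and the labels do not say whether a sample is 1 animal. All 9 carried the floxed allele of Agtr1a, the gene of the angiotensin II type 1a receptor. The floxed group had no Cre transgene, the Cdh5Cre group had Cdh5-Cre, driven by the promoter of an endothelial cadherin, and the Sm22Cre group had Sm22-Cre, driven by the promoter of a smooth muscle protein. No treatment is named in the labels, and the title of the series names Marfan syndrome while the labels give no fibrillin genotype. As background, Cdh5-Cre lines that are active in the embryo also recombine in blood cells, which arise from endothelium, and Sm22-Cre lines also recombine in heart muscle. The labels do not say whether either transgene is inducible.

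The table used here gives 1 FPKM per group and none per library. The spread between samples and the depth are therefore unknown, so no difference described here has a replicate check and none is tested. All values below are in the order floxed, Cdh5Cre, Sm22Cre. Sums over all genes were 495724, 607860 and 500015 FPKM, and Agtr1a was at 1.75, 1.32 and 1.21 FPKM. Smooth muscle markers were abundant, for example Myh11 at 1341, 1142 and 1267 FPKM, and Acta2 was listed at 0 with the status HIDATA, by which the authors' software marks a locus with too many fragments to estimate. Whole aorta was sequenced, so fewer cells of a type and less RNA per cell cannot be told apart.

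S100a8 and S100a9 encode the small calcium-binding chains of calprotectin, which makes up much of the cytosolic protein of neutrophils and also binds zinc and manganese. Saa3 is the serum amyloid A made outside the liver, by macrophages, fat and epithelia among others. Il1b and Il6 encode cytokines that start the acute phase response, Lcn2 encodes a lipocalin that withholds iron from bacteria, Hp encodes haptoglobin, which captures free haemoglobin, and Csf3r encodes the receptor for the growth factor of neutrophils.

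Before the values, the sequences around the start sites of the 3 genes with the largest differences are shown, because S100a8 and S100a9 had the same group order and Saa3 the opposite one. They run from 250 bases before to 50 bases after the start that RefSeq annotates on GRCm38.p6, 5′ to 3′ on the strand of the gene. S100a8 lies at chr3:90668821-90669120 on the plus strand, S100a9 at chr3:90695672-90695971 on the minus strand and Saa3 at chr7:46715627-46715926 on the minus strand. Capitals mark every match to 1 of 5 motifs, searched on both strands.
S100a8: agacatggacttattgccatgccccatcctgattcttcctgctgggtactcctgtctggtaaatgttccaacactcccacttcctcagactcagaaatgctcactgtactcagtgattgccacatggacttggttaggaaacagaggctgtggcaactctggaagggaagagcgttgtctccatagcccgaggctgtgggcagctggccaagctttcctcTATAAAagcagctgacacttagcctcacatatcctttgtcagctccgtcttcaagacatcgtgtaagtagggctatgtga
S100a9: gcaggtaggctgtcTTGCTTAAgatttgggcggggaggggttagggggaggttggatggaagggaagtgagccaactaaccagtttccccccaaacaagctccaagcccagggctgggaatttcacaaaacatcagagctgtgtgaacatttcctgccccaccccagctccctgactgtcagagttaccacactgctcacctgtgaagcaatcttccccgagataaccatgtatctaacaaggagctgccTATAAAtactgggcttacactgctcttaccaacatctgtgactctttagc
Saa3: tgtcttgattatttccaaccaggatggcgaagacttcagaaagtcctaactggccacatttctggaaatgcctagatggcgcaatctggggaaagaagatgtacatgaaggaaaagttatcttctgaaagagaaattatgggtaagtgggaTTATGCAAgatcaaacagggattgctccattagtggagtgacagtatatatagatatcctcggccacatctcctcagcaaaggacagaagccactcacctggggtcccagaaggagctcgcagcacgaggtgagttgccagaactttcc

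The 5 motifs were a TATA box (TATAAA), a C/EBP motif (TTGCNNAA), a STAT motif (TTCNNNGAA), an AP-1 motif (TGANTCA) and an NF-kappa-B motif (GGG and CC with any 5 bases between them). RefSeq sequences were found for 7 of the 8 genes, all but Hp. In S100a8 the single match was a TATA box that began 30 bases before the start. In S100a9 a C/EBP match lay 236 bases before the start and a TATA match lay at the annotated start. Saa3 held no TATAAA and had a C/EBP match, on the opposite strand, 99 bases before the start. The C/EBP motif was also matched in Lcn2 and Il6, so 4 of the 7 held it, against 10.8% of 32851 mouse promoters of the same length. TATAAA was matched in 3 of the 7 (S100a8, S100a9 and Il1b) against 13.6% of all, and the loose NF-kappa-B motif in 3 (Lcn2, Il6 and Csf3r) against 50.8%. The AP-1 motif was matched in Il6 (7.81% of all) and the STAT motif in none of the 7 (8.30% of all). A match is a string of letters, not a shown binding site.

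**Figure D1:**
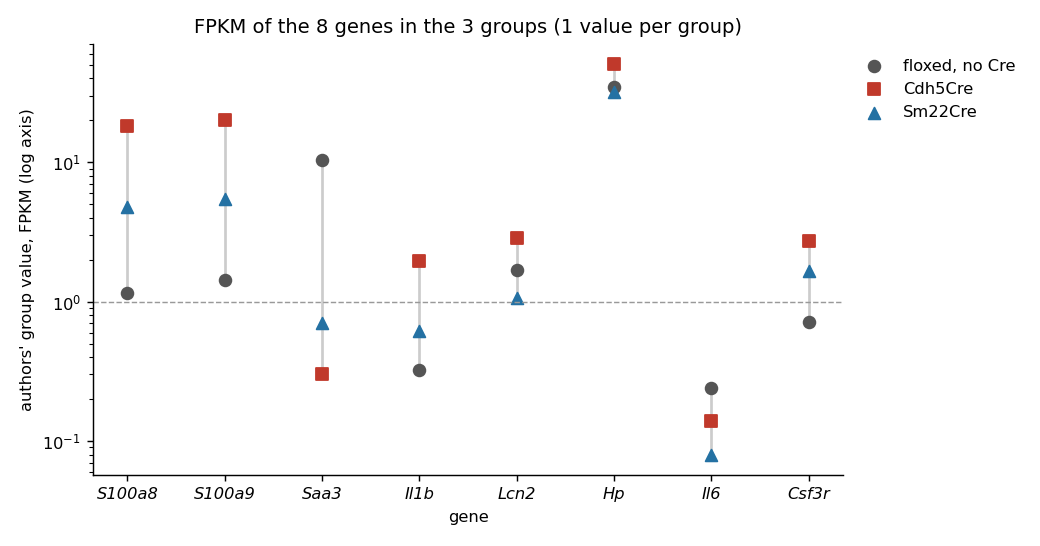
The authors' FPKM (log axis) of each of the 8 genes, with 1 point per group and a grey line from the lowest to the highest group. The dashed line marks 1 FPKM. S100a8 and S100a9 were highest in Cdh5Cre (18.1 and 19.9 FPKM), and Saa3 was highest in floxed (10.3 FPKM).

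The 8 genes fell into 4 orders of the groups. S100a8, S100a9, Il1b and Csf3r were lowest in floxed, higher in Sm22Cre and highest in Cdh5Cre. Lcn2 and Hp were also highest in Cdh5Cre, but lowest in Sm22Cre. Saa3 ran from Cdh5Cre, the lowest, through Sm22Cre to floxed. Il6 was lowest in Sm22Cre and highest in floxed. Among all 14225 genes the first of these orders was held by 28.1%, the second by 18.0% and that of Saa3 by 25.2%.

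Both chains of calprotectin stood just above 1 FPKM in floxed aorta and far higher in Cdh5Cre. S100a8 (ENSMUSG00000056054, mm9 chromosome 3, 90472993 to 90473956) was at 1.15, 18.1 and 4.73 FPKM. S100a9 (ENSMUSG00000056071, mm9 chromosome 3, 90496554 to 90499643) was at 1.43, 19.9 and 5.49 FPKM. In both genes Cdh5Cre stood highest and Sm22Cre lay between the other groups. By plain ratio of FPKM, Cdh5Cre was 15.7-fold above floxed for S100a8 and 13.9-fold for S100a9, and Sm22Cre was 4.10-fold and 3.84-fold above floxed.

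Ratios from here on, unless called plain, are log2 ratios of FPKM + 1, which understate differences of low genes, and 2-fold means a log2 ratio of 1 or more in size on that scale. S100a8 had log2 ratios of 3.15 in Cdh5Cre against floxed and 1.41 in Sm22Cre against floxed. S100a9 had 3.11 and 1.42. Of 14225 genes ranked from the highest ratio, S100a8 and S100a9 took places 3 and 4 in Cdh5Cre against floxed, and places 13 and 12 in Sm22Cre against floxed. These 2 comparisons share the floxed group.

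The chains had a similar proportion in the 3 groups while their level differed. S100a9 stood at 1.24 times S100a8 in floxed, 1.10 times in Cdh5Cre and 1.16 times in Sm22Cre, on the FPKM scale, which allows for transcript length. Together they summed to 2.58, 38.0 and 10.2 FPKM. In the ranking of all genes by level, S100a8 held place 13405 in floxed, 4754 in Cdh5Cre and 9956 in Sm22Cre. No window of 75 bases, the read length, of either transcript occurs in a transcript of another gene of GENCODE M21, and no other gene overlaps their listed loci.

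Csf3r and Il1b had the same order with smaller differences. Csf3r (ENSMUSG00000028859, mm9 chromosome 4, 125701794 to 125722219) was at 0.72, 2.71 and 1.66 FPKM, with log2 ratios of 1.11 in Cdh5Cre and 0.63 in Sm22Cre against floxed. It passed 2-fold in Cdh5Cre against floxed, but lay at 0.99 once the group sums were made equal without globin and mitochondrial genes. Of the 75-base windows of its transcripts, 3.38% also occur in transcripts of another gene. Il1b (ENSMUSG00000027398, mm9 chromosome 2, 129190306 to 129201484) was at 0.32, 1.97 and 0.62 FPKM, with log2 ratios of 1.17 and 0.29. Its listed locus overlaps that of the antisense gene Il1bos, and whether the fragments were counted by strand is not stated, so fragments of the 2 cannot be told apart. Against S100a8, whose plain ratio in Cdh5Cre was 15.7, that of Il1b was 6.12 and that of Csf3r 3.78.

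Lcn2 and Hp were modestly higher in Cdh5Cre and lower in Sm22Cre. Lcn2 (ENSMUSG00000026822, mm9 chromosome 2, 32240153 to 32243317) was at 1.69, 2.88 and 1.06 FPKM. Its log2 ratios to floxed were 0.53 in Cdh5Cre and -0.39 in Sm22Cre, and that of Sm22Cre to Cdh5Cre was -0.91. Hp (ENSMUSG00000031722, mm9 chromosome 8, 112099030 to 112103072) had the highest level of the 8 at 34.7, 51.0 and 31.9 FPKM, with the same 3 ratios at 0.54, -0.12 and -0.66. With the trend of the ratios on transcript length and GC content removed, the Cdh5Cre against floxed ratios became 0.09 for Lcn2 and 0.18 for Hp, a move of over 1.5 times. The corresponding values for S100a8 and S100a9 were 2.65 and 2.63.

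Saa3 went the other way. Saa3 (ENSMUSG00000040026, mm9 chromosome 7, 53967368 to 53971046) was at 10.3, 0.30 and 0.71 FPKM. Both Cre groups lay under 1 FPKM, and floxed stood far above them. By plain ratio floxed was 34.0-fold above Cdh5Cre and 14.6-fold above Sm22Cre. The log2 ratios of -3.12 and -2.73 were the second lowest of the 14225 genes in each of these comparisons, which share the floxed group. With 1 value per group, a high value in a single floxed sample and a high level in all 3 cannot be told apart.

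Il6 was close to the lower end of what the table lists. Il6 (ENSMUSG00000025746, mm9 chromosome 5, 30339701 to 30346508) was at 0.24, 0.14 and 0.08 FPKM and carried the status NOTEST in every pair. The other 7 genes carried the status OK in all 3 pairs.

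Counted by the 2-fold rule, 4 of the 8 genes were higher in Cdh5Cre than in floxed (S100a8, S100a9, Il1b and Csf3r) and 1 was lower (Saa3), beside 1.19% of all compared genes higher and 0.703% lower. These shares are 169 and 100 genes, and with equal group sums the balance turned, to 114 higher and 256 lower. In Sm22Cre against floxed 2 were higher (S100a8 and S100a9) and 1 lower (Saa3), beside 0.302% and 0.33%. In Sm22Cre against Cdh5Cre none was higher and 2 were lower (S100a8 at -1.73 and S100a9 at -1.69), beside 0.401% and 1.23%, which are 57 and 175 genes, or 135 and 115 with equal sums. The genes were chosen for these values, so nothing is read from the counts. Under the smaller pseudocounts of 0.1 and 0.5 FPKM, Il1b and Lcn2 also passed 2-fold in the last comparison, which made 4 lower genes. With the minimum at 5 FPKM, 4 of the 8 genes entered, and 2 were higher and 1 lower in Cdh5Cre against floxed.

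**Figure D2:**
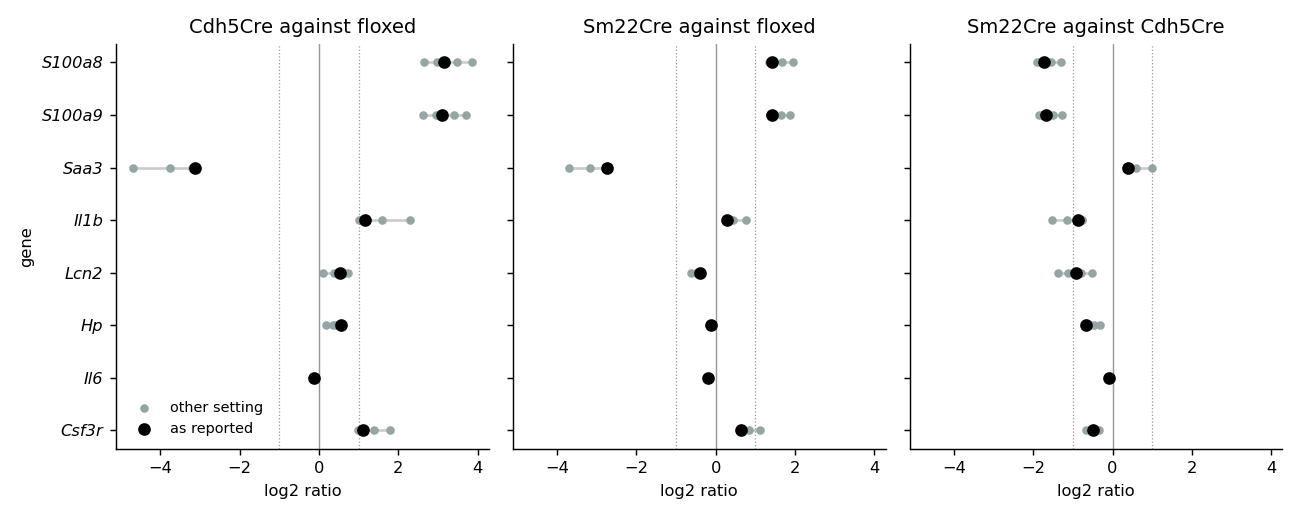
The log2 ratio (horizontal axis) of each of the 8 genes in the 3 comparisons, as reported (black) and under the other settings (grey), with dotted lines at 2-fold. Points of S100a8 and S100a9 stayed beyond 2-fold in each panel, and those of Saa3 ran from -4.69 to -3.12 in Cdh5Cre against floxed.

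The other compared genes next to the 2 loci differed by less than S100a8, S100a9 and Saa3. S100a8 and S100a9 lie 22.6 kb apart on mm9 in the S100 gene cluster. S100a7a, 10.9 kb before S100a8, was at 1.20, 2.69 and 1.69 FPKM, and S100a6, 54.7 kb before it, at 331.8, 428.0 and 328.5. S100a7a had the group order of the calprotectin genes, with a plain ratio of 2.25 in Cdh5Cre against floxed. On the other side Pglyrp4, a peptidoglycan recognition gene 31.2 kb after S100a9, was at or below 0.04 FPKM in all groups, so it could not reach 2-fold. Next to Saa3, Saal1, 1.32 kb away, was at 4.01, 3.92 and 4.05 FPKM.

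The other S100 genes, which encode calcium-binding proteins of many cell types, were higher in Cdh5Cre by less. Over all compared genes, 51.7% were above floxed in Cdh5Cre and 52.0% in Sm22Cre, to be read beside each count of list genes above floxed. The sets are not alike. List counts and medians also hold genes below 1 FPKM in every group, which these shares leave out (11 of the 16 S100 genes were compared). A gene at 0 in floxed cannot lie below it. Of 16 S100 genes found, all 16 were above floxed in Cdh5Cre and 3 by 2-fold (S100a8, S100a9 and S100a10), with a median log2 ratio of 0.47 beside 0.02 over all compared genes. Without S100a8 and S100a9 the median was 0.39. S100a10, the annexin A2 partner, was at 105.9, 238.1 and 115.7 FPKM, with log2 ratios of 1.16 in Cdh5Cre and 0.13 in Sm22Cre against floxed. S100 transcripts are short, and with the trend on length and GC content removed the Cdh5Cre ratio of S100a10 became 0.67 and that of S100a6 went from 0.37 to -0.15. In Sm22Cre against floxed the median of the 16 was 0.00, and 2 of them, S100a8 and S100a9, were at 2-fold. The count of all 16 above floxed in Cdh5Cre was 15 of 16 after quantile normalization and 8 of the 11 for which the trend could be removed.

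**Figure D3:**
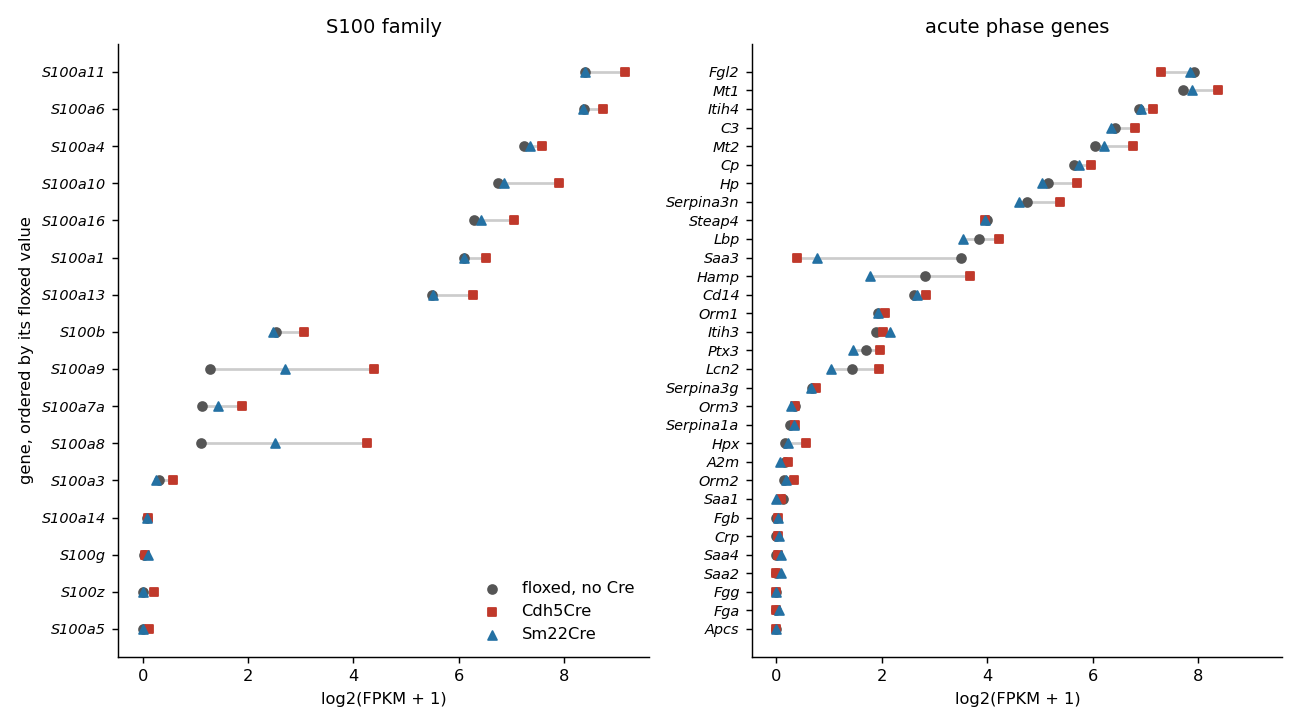
Levels as log2(FPKM + 1) of the 16 S100 genes (left) and 31 acute phase genes (right), ordered by the floxed value, with 1 point per group. S100a8 and S100a9 have the widest spans on the left, and Saa3 has the widest span on the right while Saa1, Saa2 and Saa4 lie near 0.

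Of the acute phase genes, Saa3 and Hamp differed by 2-fold. Of 31 such genes, mostly known as secreted products of the liver, 17 were among the compared genes. None of the 31 was higher in Cdh5Cre than in floxed by 2-fold and 1, Saa3 itself, was lower, with a median log2 ratio of 0.13. In Sm22Cre none was higher than in floxed and 2, Saa3 and Hamp, were lower, with a median of 0.00. The 3 other serum amyloid A genes, Saa1, Saa2 and Saa4, were at or below 0.09 FPKM in every group. Of the 75-base windows of the Saa3 transcripts, 1.58% also occur in transcripts of another gene. Hamp, the gene of the iron hormone hepcidin, was at 6.05, 11.8 and 2.44 FPKM, 2-fold lower in Sm22Cre than in floxed (log2 ratio -1.04) and than in Cdh5Cre (-1.89). Of the 31 genes, 10 had the group order of Lcn2 and Hp, these 2 among them, and 10 had that of the calprotectin genes. Serpina3n and Lbp, a protease inhibitor and the carrier of bacterial lipopolysaccharide, had the order of Lcn2 and Hp. They were at 25.9, 40.6 and 23.3 and at 13.3, 17.8 and 10.7 FPKM. Hpx, whose product binds free haem, was at 0.12, 0.47 and 0.17 FPKM, far below Hp.

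Other genes of neutrophils were low. In a list of 14 neutrophil markers, which holds S100a8, S100a9 and Csf3r, the floxed group had 11 below 1 FPKM, Cdh5Cre 9 and Sm22Cre 10. The defining surface marker Ly6g was listed at 0 in floxed and at 0.32 and 0.13 FPKM in Cdh5Cre and Sm22Cre. Mpo and Elane, which encode myeloperoxidase and neutrophil elastase, were listed at 0 in floxed, and were at 0.05 and 0.01 and at 0.15 and 0.08 FPKM in Cdh5Cre and Sm22Cre. Retnlg, a resistin-like gene of neutrophils, was at 0.28, 2.37 and 0.92 FPKM, and Cxcr2, a chemokine receptor, at 0.11, 0.55 and 0.32.

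All 14 neutrophil markers were above floxed in Cdh5Cre (13 of 14 with equal sums), and 13 had the order floxed, Sm22Cre, Cdh5Cre. The exception was Mmp9, which other cells also express, at 3.37, 3.62 and 3.07 FPKM. The 14 summed to 7.57, 49.5 and 17.3 FPKM. Without the 3 genes described here, 11 markers summed to 4.28, 8.84 and 5.42 FPKM, and 2 of them were among the compared genes. The median log2 ratio of the 11 was 0.20 in Cdh5Cre against floxed, and 1 (Retnlg) passed 2-fold. A gene below 1 FPKM in every group cannot reach 2-fold on this scale, so its not passing says nothing. Among 25 genes of neutrophil granules, 5 were among the compared genes and 19 were above floxed in Cdh5Cre. There 1 passed 2-fold, Pglyrp1, an antibacterial protein gene, at 0.63, 2.97 and 1.29 FPKM. With the trend removed Retnlg (0.94) and Pglyrp1 (0.69) lay below 2-fold. Of 26 surface receptor genes of neutrophils, 12 were among the compared genes, 19 were above floxed in Cdh5Cre and 1 passed, Csf3r. Among the genes of these lists that macrophages also express, Itgb2 was at 3.22, 5.06 and 4.84 FPKM, Itgam at 2.75, 2.64 and 3.11, Cybb at 4.09, 2.89 and 4.38 and Lyz2 at 130.4, 146.6 and 147.2. With the trend removed the Cdh5Cre against floxed ratio of Itgb2 went from 0.52 to 0.45 and that of Cybb from -0.39 to -0.04. That of Lyz2 went from 0.17 to -0.04 and that of Itgam, which carried the status FAIL there, from -0.04 to 0.13.

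Most platelet and erythroid markers had the order of the calprotectin genes. All 12 platelet markers were above floxed in Cdh5Cre and 11 of 12 in Sm22Cre, and their summed level was 63.0, 387.2 and 118.2 FPKM. Of 10 erythroid markers, 9 were above floxed in Cdh5Cre and all 10 in Sm22Cre, with sums of 4044, 25517 and 9063 FPKM. In each comparison 4 of the 10 carried the status OK. Hba-a1 (1201, 7867 and 2586 FPKM) and Hba-a2 (971.7, 6703 and 2110) carried FAIL in Cdh5Cre against floxed. The order floxed, Sm22Cre, Cdh5Cre was held by 11 of the 12 and by 9 of the 10. By plain ratio of the sums to floxed, Cdh5Cre was 6.14-fold higher for platelet markers and 6.31-fold for erythroid markers, and Sm22Cre 1.87-fold and 2.24-fold. The same ratios for the neutrophil markers were 6.54 and 2.28 with S100a8, S100a9 and Csf3r, which make up most of that sum in the Cre groups, and 2.07 and 1.27 without them. The part of blood cells in the values of S100a8, S100a9, Il1b and Csf3r was not tested.

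Of the cell types of the vessel wall, endothelium and adventitial fibroblasts had most markers above floxed in Cdh5Cre, and smooth muscle did not. All 11 endothelial markers were above floxed in Cdh5Cre (9 of 11 with equal sums), and 9 had the order floxed, Sm22Cre, Cdh5Cre. By 2-fold 4 were higher, and with the trend removed 1 of them, Emcn (1.27), was, while Egfl7 (0.64), Cldn5 (0.81) and Sox18 (0.83) lay below. Their sums were 363.8, 569.3 and 409.6 FPKM, with Cdh5 itself at 13.7, 19.1 and 13.6. Of 9 markers of adventitial fibroblasts, 8 were above floxed in Cdh5Cre (6 of 9 after quantile normalization) and 3 by 2-fold (1 with the trend removed, Pi16 at 1.17), with sums of 2487, 3812 and 2415 FPKM. Of 7 smooth muscle markers, 3 were above floxed in Cdh5Cre and 3 in Sm22Cre, none by 2-fold, with median log2 ratios of -0.04 and -0.07 and sums of 6890, 7289 and 6803 FPKM. The part of these cells in the values of the 8 genes was not tested.

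Among markers of other white blood cells, none passed 2-fold against floxed. Of 12 macrophage markers, 4 were above floxed in Cdh5Cre and none passed 2-fold, with a median log2 ratio of -0.18 and sums of 267.8, 285.2 and 287.6 FPKM. The mannose receptor gene Mrc1 was at 11.7, 6.56 and 11.9 FPKM, whereas C1qa was at 57.6, 74.1 and 60.6. These macrophage values are given without the trend on length and GC content removed. With it removed, the Cdh5Cre against floxed ratio of the marker Cd163 went from -0.49 to -0.31 and that of Cd68 from 0.24 to -0.09. The 10 monocyte markers had a median of 0.35 in Cdh5Cre and 0.03 in Sm22Cre against floxed, with none at 2-fold in either, and their sums were 134.3, 147.0 and 126.6 FPKM. Of 13 lymphoid markers, 12 were above floxed in Cdh5Cre and 9 in Sm22Cre, with medians of 0.36 and 0.16. Only 5 of the 13 were among the compared genes, and the rest could not reach 2-fold. They summed to 15.0, 29.4 and 18.3 FPKM, a plain ratio to floxed of 1.96 in Cdh5Cre and 1.22 in Sm22Cre. The order of the calprotectin genes was held by 8 of the 13 lymphoid, 5 of the 10 monocyte and 3 of the 12 macrophage markers.

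**Figure D4:**
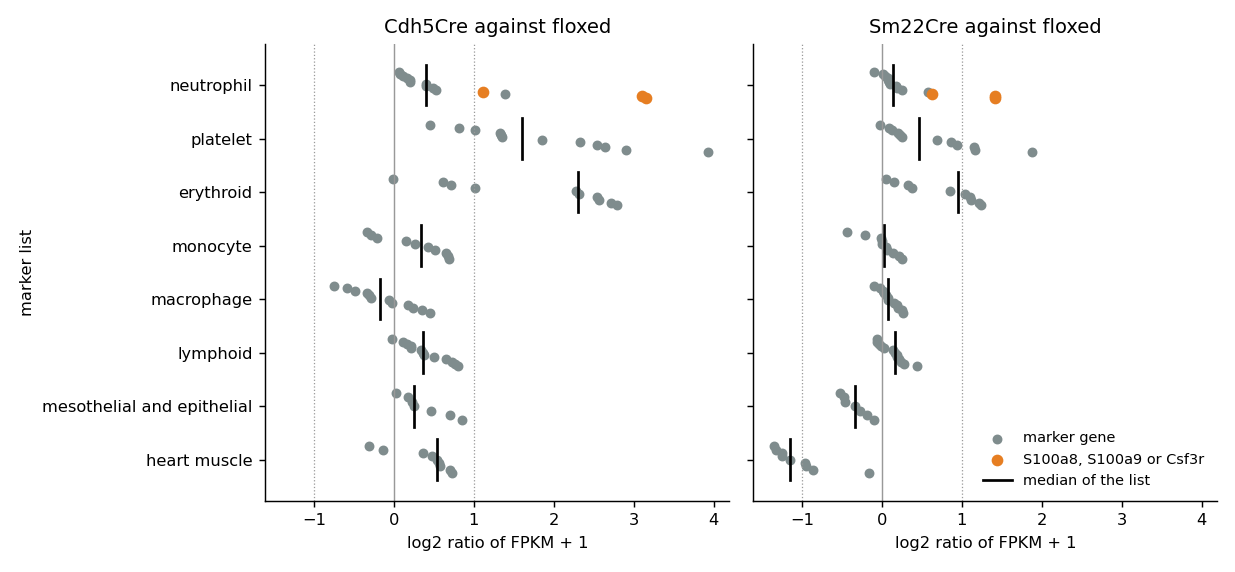
Log2 ratios of FPKM + 1 to floxed (horizontal axis) for the genes of 8 marker lists, in Cdh5Cre (left) and Sm22Cre (right). Orange points are S100a8, S100a9 and Csf3r, black bars are list medians, and dotted lines mark 2-fold. Platelet (median 1.60) and erythroid (2.30) genes lie to the right in Cdh5Cre, while macrophage genes have a median of -0.18.

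The order of Lcn2 and Hp was also the order of another set of markers. All 7 mesothelial and epithelial markers were highest in Cdh5Cre (6 of 7 above floxed with equal sums) and lowest in Sm22Cre, with sums of 39.9, 54.1 and 30.8 FPKM. Among them Krt19 was at 3.52, 7.16 and 2.16 and Msln at 7.88, 11.3 and 6.03. Of 9 heart muscle markers, 7 had this order, with sums of 917.4, 1363 and 415.3 FPKM. Among 8 adipocyte markers 2 had it and 4 had the order of the calprotectin genes, with sums of 611.2, 805.6 and 661.9 FPKM. The part of these cells in the values of Lcn2 and Hp was not tested. Of 8 liver markers, all 8 were above floxed in Cdh5Cre and 6 were under 1 FPKM in each group, and albumin (Alb) was at or below 0.05 FPKM. By 2-fold 1 was higher in Cdh5Cre than in floxed, and 1 was lower in Sm22Cre than in Cdh5Cre. The 3 genes Apoa1, Fgb and Ttr were listed at 0 in floxed and could not lie below it.

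Genes of ligands and signals that act on these genes were mostly low or short of 2-fold. Csf3, which encodes the ligand of Csf3r, was listed at 0 in floxed and at 0.04 and 0.02 FPKM in the Cre groups. Of 12 chemoattractant and growth factor genes of neutrophils, 4 were among the compared genes. In Cdh5Cre against floxed 2 passed 2-fold, Ppbp (9.12, 153.4 and 36.1 FPKM) and Pf4 (26.9, 55.5 and 31.0). Both are platelet genes, and Pf4, at 1.02, fell short of 2-fold with the trend removed (0.50). Cxcl1 was at 1.00, 1.65 and 0.88 FPKM and Cxcl2 at 0.07, 0.24 and 0.07.

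In the interleukin-1 pathway, 1 of 22 genes, Il1b, was at 2-fold, in Cdh5Cre against floxed. The median there was 0.12, and 0.01 with equal sums. Il1a, the other agonist, was at or below 0.06 FPKM, and the antagonist gene Il1rn was at 0.19, 0.22 and 0.27. The receptor gene Il1r1 was at 15.7, 11.5 and 14.7 FPKM. Casp1, whose product cleaves the interleukin-1 beta precursor, was at 2.67, 4.06 and 2.83, and Gsdmd, the pore protein gasdermin D, at 5.28, 8.79 and 5.78. With the trend removed the Cdh5Cre against floxed ratio of Il1r1 went from -0.42 to -0.05. That of Casp1 went from 0.46 to 0.45 and that of Gsdmd from 0.64 to 0.40.

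None of 19 genes of the interleukin-6 family pathway passed 2-fold in any comparison, with medians against floxed of 0.01 in Cdh5Cre and -0.04 in Sm22Cre. The receptor chains were present, Il6ra at 1.99, 1.45 and 2.15 FPKM and the shared chain Il6st at 86.6, 77.8 and 83.6. With the trend removed the Cdh5Cre against floxed ratio of Il6ra went from -0.29 to -3.7e-05 and that of Il6st from -0.15 to 0.22. The feedback inhibitor gene Socs3, a known target of this pathway, was at 3.33, 6.09 and 3.19 FPKM, and Socs1 at 3.82, 7.94 and 4.84. Their Cdh5Cre against floxed ratios were 0.71 and 0.89, or 0.47 and 0.68 with the trend removed.

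Of 19 genes of NF-kappa-B and C/EBP factors and their feedback, none passed 2-fold against floxed, and Cebpb passed in Sm22Cre against Cdh5Cre (9.35, 17.3 and 7.86 FPKM, log2 ratio -1.05, or -0.47 with the trend removed). Cebpd, an acute phase transcription factor gene, was at 58.4, 108.1 and 56.3 FPKM. Its Cdh5Cre against floxed ratio was 0.88, or 0.91 with the trend removed. The same ratio was 0.82 for Cebpb and 0.80 for Bcl3, or 0.27 and 0.39 with the trend removed. Among 11 receptors and partners of calprotectin and serum amyloid A none passed 2-fold in any comparison. Tlr4, which senses lipopolysaccharide and is bound by calprotectin, was at 13.7, 8.90 and 13.3 FPKM, and Bsg, the basigin gene, at 222.7, 306.3 and 222.7. With the trend removed the Cdh5Cre against floxed ratio of Tlr4 went from -0.57 to -0.19 and that of Bsg from 0.46 to 0.10. Of 12 partners of haptoglobin and lipocalin none passed 2-fold either, with the haptoglobin receptor gene Cd163 at 6.96, 4.68 and 8.45 FPKM and the ferritin light chain gene Ftl1 at 391.2, 758.5 and 390.0.

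The genes most like each member were found from the distance between their pairs of log2 ratios to floxed, over the 3 group values. These are ratios of FPKM + 1, which understate differences of low genes, so a near gene can have unlike plain ratios. Near Il1b, whose plain ratio in Cdh5Cre was 6.12, Cldn5 was at 16.9, 41.3 and 20.8 FPKM. Ppbp, with plain ratios to floxed of 16.8 and 3.96, was not among the 5 nearest to S100a8 (15.7 and 4.10). S100a8 and S100a9 were each other's nearest gene, 0.04 apart. The next nearest to S100a8 were Ctla2a (0.39 away), the alpha globin genes Hba-a2 (0.47) and Hba-a1 (0.53) and the platelet receptor gene Clec1b (0.56), and the same 4 genes followed for S100a9. The alpha globin genes carried the status FAIL in Cdh5Cre against floxed. Nearest to Il1b were Cd7, Npas4, Cldn5, Emcn and Srgn, from 0.04 to 0.09 away, and Srgn also carried FAIL in that comparison. Rsad2 and Angptl4, both 0.06 away, were nearest to Csf3r.

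For Saa3 the nearest gene, Gm25047, was 0.60 away, and all 5 nearest (Gm25047, Gm26280, Gm24391, Gm24940 and Gm25369) were listed at 0 in both Cre groups. In Cdh5Cre against floxed Gm26280 carried the status FAIL and the others OK. Depth is unknown, so no limit of detection can be given for a listed 0, and these are not set beside Saa3 further. Hp had many close genes, with Gm25070, Clec11a, Pgf, Exosc5 and Atp5o all within 0.02, and Cadm3 was nearest to Lcn2 at 0.02. Of these, Gm25070, Atp5o and Cadm3 carried the status FAIL in Cdh5Cre against floxed.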

How the data were processed

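RNA was sequenced from 9 frozen aorta samples, 3 per group, grouped by the labels. Per the labels' protocols, poly-A libraries were stranded and reads were paired, of 75 bases. The submitters' processing notes list Cufflinks 1.3.0, SAMtools 0.1.7, TopHat2 2.0.8, Bowtie2 2.1.0 and the mouse build mm9. The options, the annotation and the use of strand are not given in the sources used here. The authors deposited a table with the columns of a Cuffdiff gene comparison, per the file headers, and its values were read as FPKM, 1 per gene and group for each of 3 pairs of groups (113004 rows). No interval or test could be computed.

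The members and lists were chosen with earlier results of these data known. Genes at 1 FPKM or more in at least 1 group were compared by log2 of FPKM + 1, and 2-fold on that scale was the rule of size. The 7 genes with status HIDATA in any pair were left out. Values that differed between pairs (15 genes, none of the 8) were read from 1 pair. Symbols were matched by Ensembl gene identifier (32638 genes), and, of 304 list symbols, 302 were used, S100a2 not being found and Acta2 having failed. Lists are given over all members found, since 2-fold cannot be reached below 1 FPKM. Starts were taken to count from 0, as the listed span equalled the GENCODE length in 13805 genes, and 1 was added. The trend on length and GC content was a quadratic fit over 12317 genes, which took up 44.8% of the variance in Cdh5Cre against floxed. The genes named were drawn from the 8, their partners, the list genes at 2-fold, the 5 genes nearest in pattern and the genome neighbours. Not all of these are named, and many cell type markers at 2-fold are left out. Other list genes at lower ratios were named for their roles after their values were seen. Scripts were tested on simulated data. Python 3.11.15, numpy 2.4.6 and pandas 2.3.3 were used.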

Additional observations from a re-analysis of the deposited data

How the results depend on the processing

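Across 204 log2 ratios of the 8 genes under 10 other settings, none changed sign and 198 kept their side of 2-fold. Part of this was fixed in advance. No low-value filter (24 ratios), the minimum of 5 FPKM (12) and status OK alone (21) only select genes. The value from the other pair (21) was the same for all 8 genes. The ratios under these settings repeat the main ones and could not change. The exceptions were Csf3r in Cdh5Cre against floxed, at 0.99 with equal FPKM sums without globin and mitochondrial genes, and 5 that newly passed. With a pseudocount of 0.1 FPKM these were Csf3r in Sm22Cre against floxed (1.11), Il1b (-1.53) and Lcn2 (-1.36) in Sm22Cre against Cdh5Cre, and with 0.5 FPKM Il1b (-1.14) and Lcn2 (-1.12) there. The genes past 2-fold among the 8 were then 4 in place of 2 in Sm22Cre against Cdh5Cre under both pseudocounts, and 3 in place of 5 in Cdh5Cre against floxed with a minimum of 5 FPKM. Over all genes, 269 were past 2-fold for Cdh5Cre against floxed, 90 for Sm22Cre against floxed and 232 for the Cre groups against each other. A pseudocount of 0.1 FPKM gave 586, 171 and 528, and 0.5 FPKM gave 349 in the last. A minimum of 5 FPKM, which leaves 10208 genes, gave 38 for Sm22Cre against floxed and 149 for the Cre groups against each other. Removing the trend on length and GC content, over 12317 genes, gave 79 (61 higher and 18 lower, against 169 and 100), 36 (13 and 23, against 43 and 47) and 91 (11 and 80, against 57 and 175). Making the sums equal moved the median of all genes in Cdh5Cre against floxed from 0.02 to -0.15 and turned the balance there to 114 higher and 256 lower (370), and to 135 and 115 between the Cre groups. The cause of these moves was not tested, other than fewer genes entering under the stricter minimum. Leaving out single samples was not run, since only group values were used here. No paired analysis was possible because the columns carry groups, not samples. Depth is unknown, so no limit of detection could be given for Il6, Saa3 in the Cre groups or the genes listed at 0.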
